A study of Homo sapiens with 8 samples.

Results

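The genes described here encode the proteins of the cytosolic ribosome, followed across liver cell cultures grown flat, in a scaffold, or in a perfused scaffold. They were chosen by name: every probe whose platform symbol begins with RPL or RPS and a digit, or is RPLP0, RPLP1, RPLP2 or RPSA, without the RPS6K kinases, RPS26 and symbols that end in P and a number, the form of pseudogene names. That rule, which uses no measured value, took 126 of 47323 probes and 77 of 20046 named genes, 50 of the large subunit and 27 of the small one. Of these, 71 genes (46 large, 25 small) were detected on at least 2 arrays and are shown, with 114 probes. Another 4 genes, RPL10, RPL10L, RPL22L1 and RPL3L, were detected on 0 of 8 arrays by any of their probes, and the remaining 2 are Y-linked and no value is given for them. RPLP0, RPSA and RPS27A carry no named probe in the annotation used and were not analysed here.

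The 3 culture formats were profiled on Illumina HumanHT-12 v4 bead arrays, 1 RNA sample per array, all after 5 days of culture. The 2D group (3 arrays) was a monolayer started with 250000 cells. Static 3D (3 arrays) was a microporous polycarbonate scaffold in a well, started with 1000000 vital cells, and perfused 3D (2 arrays) was the same kind of scaffold in a bioreactor fed by a pump, also started with 1000000. Format and seeded number therefore changed together between 2D and the scaffolds. The sample labels name the HepG2 hepatocarcinoma line for every sample, whereas the design text speaks of hepatocytes from donors, so the source of the cells is unsettled. The design text also counts 3 perfused cultures, of which 2 arrays were analysed. Nothing in the labels says which samples share a culture, a donor or a day, so p-values measure only the spread between these arrays.

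A ribosome has a large subunit, which joins amino acids and carries the exit tunnel, and a small subunit, which reads the messenger RNA. Each holds ribosomal RNA and a set of proteins, most of them needed in equal numbers. Cells make these proteins in proportion, largely by controlling the translation of their messenger RNAs. Those messengers usually begin with a cytosine followed by a stretch of pyrimidines, the 5′ terminal oligopyrimidine (TOP) motif, through which the mTOR pathway controls their translation according to growth signals. Several genes have a second, similar copy (a paralogue) such as RPL39L beside RPL39 or RPS27L beside RPS27. Arrays measure messenger RNA levels only, and in a bulk sample fewer cells of a type and less RNA per cell cannot be told apart.

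The start of these genes carries the letters of the TOP motif more often than that of other genes. Of the 63 shown or undetected members with an entry in the RefSeq promoter table (build GRCh38.p14; 75 were looked up), 44, or 69.8%, had a C followed by at least 4 bases that are C or T at an annotated start, against 5.14% of 27305 genes with an entry. A run of at least 8 C or T beginning within 10 bases of the start was present in 79.4% and 14.7%. Searched on both strands in the 300 bases of each entry, the YY1-type motif AAGATGGC was present in 11.1% of members and 3.52% of all genes, and the ETS-type motif CCGGAAGT in 17.5% and 4.95%. The windows below cover 20 bases before the annotated start and 20 from it, read 5′ to 3′ on the gene's strand. They show examples: 5 members named below for their place in a comparison (RPL29, RPL34, RPS7, RPS12 and RPL13A), RPL39 for its long run and uneven values, and 2 paralogues that hold no such run. Capitals mark the C and T bases from the annotated start on, or in RPS7 the whole run near it. RPL29 lies at chr3:51995876-51995915 on the minus strand, RPL34 at chr4:108620556-108620595 on the plus strand, RPS7 at chr2:3575240-3575279 on the plus strand, RPS12 at chr6:132814549-132814588 on the plus strand, RPL13A at chr19:49487588-49487627 on the plus strand, RPL39 at chrX:119791611-119791650 on the minus strand, RPL7L1 at chr6:42879596-42879635 on the plus strand and RPS27L at chr15:63157458-63157497 on the minus strand.
RPL29: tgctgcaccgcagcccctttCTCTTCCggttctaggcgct
RPL34: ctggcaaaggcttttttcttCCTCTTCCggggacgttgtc
RPS7: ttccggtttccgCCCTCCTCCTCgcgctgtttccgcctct
RPS12: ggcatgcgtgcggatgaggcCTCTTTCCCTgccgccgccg
RPL13A: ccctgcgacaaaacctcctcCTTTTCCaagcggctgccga
RPL39: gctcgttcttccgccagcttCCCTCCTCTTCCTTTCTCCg
RPL7L1: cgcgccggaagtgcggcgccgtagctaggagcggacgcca
RPS27L: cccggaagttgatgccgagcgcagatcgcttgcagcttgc

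In RPL29, RPL34, RPS12, RPL13A and RPL39 the annotated start is a C inside a longer run of C and T, of 14, 18, 11, 14 and 22 bases in all, whose bases before the start are left in lower case. In RPS7 a run of 11 begins 8 bases before the start, and RPL7L1 and RPS27L hold none near it. The absence says only that these letters are not in this window. Genes with and without a C followed by at least 4 C or T at an annotated start stand side by side, with no test. RPS7 counts as without it here, and shown genes that lack a promoter entry are in neither group. The median log2 difference between static 3D and 2D was -0.33 for 42 shown genes with such a start and -0.26 for 18 without. Between perfused 3D and 2D it was -0.40 for each.

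2 arrays stood apart from the rest of their groups before any ribosomal gene was considered, 2D replicate 1 and static 3D replicate 1. Of 14 macrophage markers, 7 and 4 were detected on them against 13 or 14 on every other array, and C1QA, C1QB, MARCO, VSIG4, TYROBP and AIF1 were detected on neither. Of 9 fibroblast markers 3 were detected on each against 8 or 9 elsewhere, with COL1A1, COL1A2 and COL3A1 undetected on both, and of 2 endothelial markers 0 against 1 or 2. Of 9 markers of dividing cells, all 9 were detected on each against 3 to 6 elsewhere, with a mean log2 level of 9.76 and 9.09 against 6.81 to 7.45. The 10 hepatocyte markers were detected on every array. Their mean log2 level was 12.3 on 2D replicate 1 and between 13.6 and 14.8 elsewhere. Static 3D replicate 1 also lies on 1 chip with both perfused arrays, and the other 5 arrays lie on the second chip. The part of these differences in the results was not tested, and values without 1 or both of these arrays are given for the subunits, the lists and the genes with larger differences.

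No ribosomal protein gene passed the test in either scaffold format, and most of them lay lower in the scaffolds than in the monolayer. In static 3D, 55 of 71 were lower than in 2D, and in perfused 3D 62 of 71, against 49.9% and 49.2% of all 11031 genes tested. The typical size was small, a median log2 difference of -0.28 and -0.40, where the median of all genes was 0.00 and 0.01 and the median standard error of a member's difference was 0.25 and 0.28. Genes of each subunit lay lower, as the medians by subunit show for each comparison.

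The plot of deviations by array shows how the members lay on each array. Each gene was set against its own mean over the 8 arrays, and the deviations of a subunit's genes were averaged. For the large subunit the mean deviation was 0.52, 0.12 and 0.08 log2 units on the 3 arrays of 2D, -0.34, 0.04 and 0.03 on those of static 3D, and -0.25 and -0.20 on those of perfused 3D. For the small subunit it was 0.51, 0.07 and 0.02 in 2D, -0.24, 0.02 and -0.02 in static 3D, and -0.22 and -0.14 in perfused 3D. 2D replicate 1 was thus the high array and static 3D replicate 1 the low one, while the other arrays of 2D and static 3D lay close together and both perfused arrays lay below all of 2D. The pooled standard deviation of such an array mean within a group was 0.206 for the large and 0.195 for the small subunit. The means of the subunits lay close on every array. They differed by 0.00 on 2D replicate 1 and by -0.10 to 0.06 on all arrays, large minus small.

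**Figure D1:**
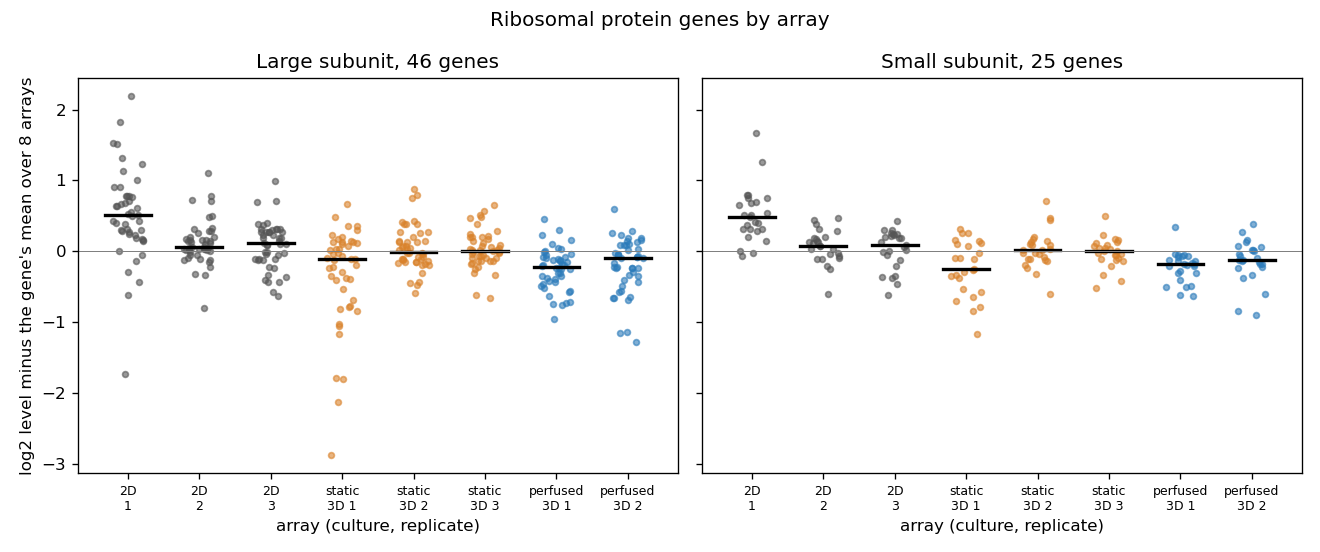
Log2 level of each ribosomal protein gene minus its own mean over 8 arrays (vertical axis, log2 units) by array (horizontal axis), with 46 large subunit genes on the left and 25 small subunit genes on the right. Points are genes and black bars are medians. 2D replicate 1 sits highest, static 3D replicate 1 has a tail of low genes, and both perfused arrays sit below 0.

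Gene by gene, 50 of the 71 members had their highest value on 2D replicate 1. The lowest value fell on perfused replicate 1 for 26, on static 3D replicate 1 for 23 and on perfused replicate 2 for 9. On 2D replicate 1, 12 members (16.9%) lay more than 1 log2 unit above the mean of the other 7 arrays, against 7.26% of all genes. These were RPL7, RPL9, RPL21, RPL23A, RPL26, RPL29, RPL34, RPL36A, RPL39, RPL39L, RPS7 and RPS21. On static 3D replicate 1, 8 members (11.3%) lay more than 1 unit below the others, against 4.92% of all genes. These were RPL14, RPL24, RPL26, RPL29, RPL31, RPL35A, RPL39 and RPS15A. The limit of 1 unit was chosen after the values were seen, and no test was made of it.

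RPL39, which lines the exit tunnel, was among the most uneven of these. Its log2 level was 14.43, 14.21 and 13.83 in 2D, 11.30, 13.81 and 13.89 in static 3D, and 13.66 and 12.29 in perfused 3D. RPL26, a protein near the tunnel exit that also binds p53 messenger RNA, had 13.35, 12.75 and 12.33 in 2D, 10.24, 12.44 and 12.41 in static 3D, and 11.97 and 10.75 in perfused 3D. RPL35A, a gene mutated in some patients with Diamond-Blackfan anaemia, had 14.20, 13.75 and 14.12, then 11.60, 13.68 and 13.65, then 13.46 and 12.84. In all 3 genes static 3D replicate 1 was lowest and perfused replicate 2 next lowest, and the other arrays of static 3D lay close to the lowest array of 2D. For RPL35A the difference between static 3D and 2D was -1.04, and -0.35 without static 3D replicate 1.

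**Figure D2:**
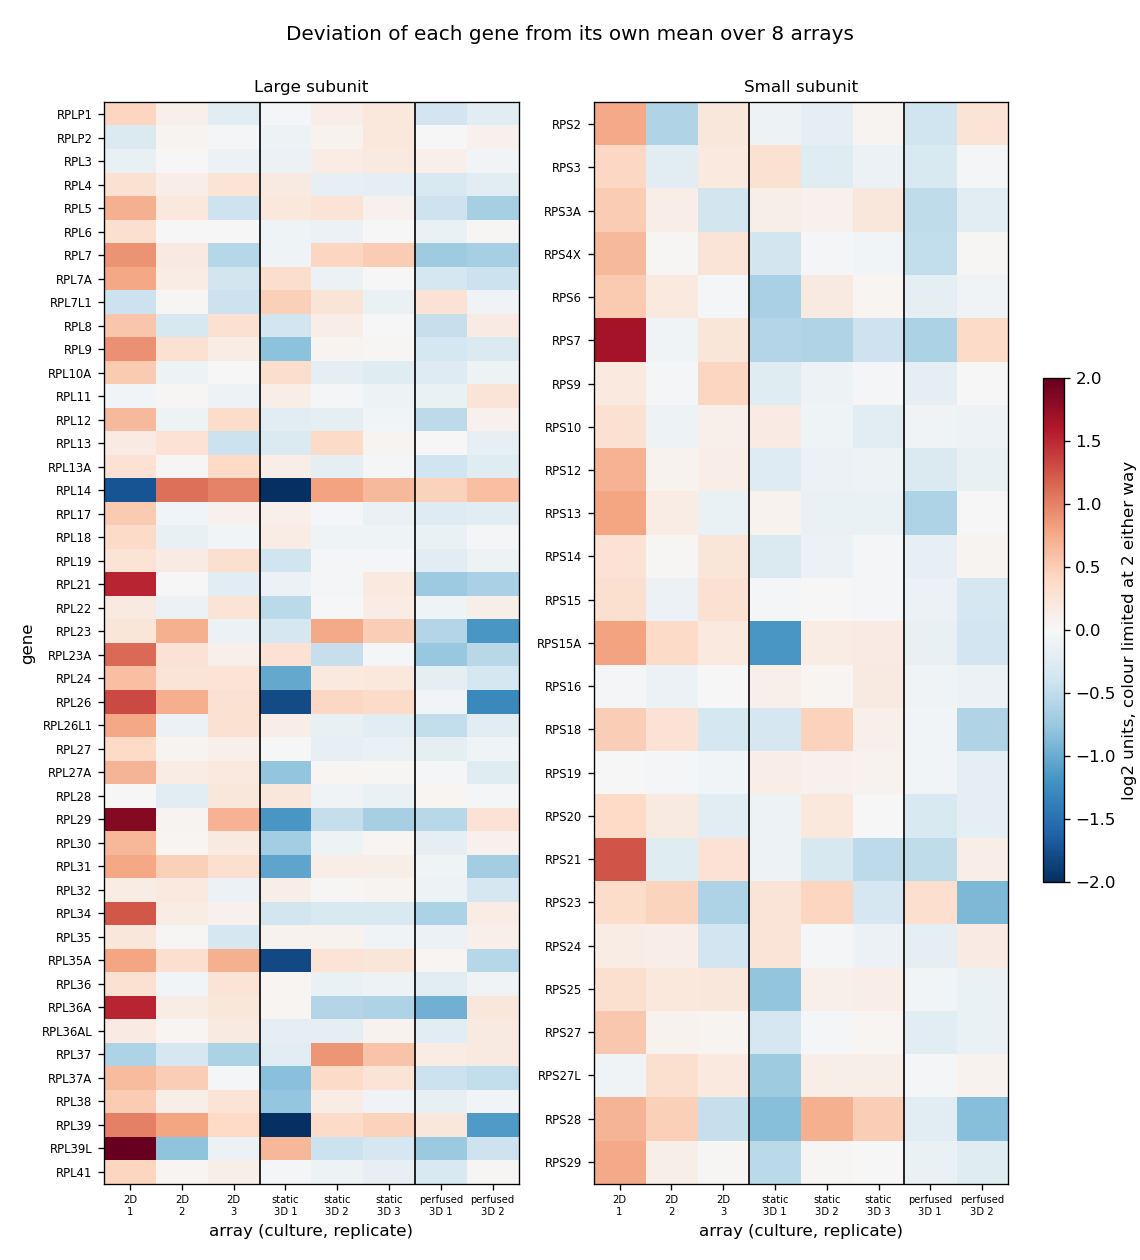
Deviation of each ribosomal protein gene (rows) from its own mean over 8 arrays (columns, with lines between the 2D, static 3D and perfused 3D arrays). Red is higher and blue lower, in log2 units, with colour limited at 2 either way. The 2D replicate 1 column is mostly red, and RPL14, RPL26, RPL35A and RPL39 are the deepest blue cells of static 3D replicate 1.

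The first comparison asks how ribosomal protein genes differ between a static scaffold and a monolayer. Here 0 of 71 members passed the test (limma, adjusted over 11031 genes, threshold 0.05), where percent called over all genes was 0, and the smallest adjusted p of a member was 0.940. The median difference was -0.27 for the large subunit, with 35 of 46 genes lower, and -0.30 for the small subunit, with 20 of 25 lower. At an unadjusted p under 0.05 there were 6 members lower (8.45%) and 1 higher (1.41%), where all genes had 2.06% lower and 2.64% higher. The arrays of the 2 groups did not overlap for 20 members lower (28.2%) and 3 higher (4.23%), where all genes had 5.18% lower and 4.96% higher. Members share the same arrays and are not replicates, so these shares carry no test.

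RPL29, a large subunit protein that is also known as a heparin-binding protein, had the smallest p of all members. Its log2 level was 12.04, 10.27 and 10.90 in 2D, 9.04, 9.73 and 9.54 in static 3D, and 9.65 and 10.49 in perfused 3D. All static arrays lay below all arrays of 2D, by -1.63 on average (SE 0.46, n = 3 and 3, limma adjusted p = 0.940). Its second probe gave -1.49. Without 2D replicate 1 and static 3D replicate 1 the difference was -0.95.

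RPS7, a small subunit protein that binds the p53 regulator MDM2, had 11.76, 10.03 and 10.34 in 2D and 9.51, 9.49 and 9.68 in static 3D. The groups did not overlap and differed by -1.15 (SE 0.46, limma adjusted p = 0.940). RPL34, of the large subunit, had 11.29, 10.20 and 10.14 in 2D and 9.68, 9.74 and 9.74 in static 3D, a difference of -0.82 (SE 0.35). In both genes the static arrays lay close together, while 2D replicate 1 lay over 1 unit above the other arrays of 2D. Without that array RPS7 differed by -0.62 and RPL34 by -0.45. RPL9, of the large subunit, had 14.30, 13.70 and 13.53 in 2D and 12.57, 13.45 and 13.41 in static 3D, a difference of -0.70 (SE 0.30). RPS12, a protein of the beak of the small subunit, had 15.48, 14.85 and 14.91 in 2D and 14.52, 14.66 and 14.68 in static 3D, a difference of -0.46 (SE 0.20). RPS15A had 14.30, 13.89 and 13.69 in 2D and 12.34, 13.65 and 13.67 in static 3D, a difference of -0.74 (SE 0.36). In these 3 genes static 3D replicate 1 was the lowest static array and 2D replicate 1 the highest of 2D, and in RPS15A the other arrays of the groups almost touched. Without static 3D replicate 1 the difference was -0.41 for RPL9 and -0.30 for RPS15A, and without both arrays that stood apart -0.19 and -0.13. RPS12 differed by -0.26 without 2D replicate 1.

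Few genes lay the other way. RPL37, a zinc-binding large subunit protein, had 6.82, 7.11 and 6.80 in 2D, 7.22, 8.32 and 8.01 in static 3D, and 7.59 and 7.62 in perfused 3D. Its probe lay near background, detected on 7 of 8 arrays and not on 2D replicate 3. Its groups did not overlap and static 3D lay higher by 0.94 (SE 0.31, limma adjusted p = 0.940). RPL7L1, a paralogue of RPL7, had 12.92, 13.38 and 12.92 in 2D and 13.84, 13.61 and 13.22 in static 3D, a difference of 0.48 (SE 0.23) with overlapping arrays. RPL3, at the peptidyl transferase centre, RPS16, RPS19, the gene most often mutated in Diamond-Blackfan anaemia, and RPS24 differed by 0.16, 0.15, 0.13 and 0.07. RPS19 varied little within its groups, at 14.71, 14.68 and 14.64 in 2D and 14.84, 14.79 and 14.78 in static 3D. After median scaling these 4 differences turned negative, between -0.058 and -0.17, where that scaling moved the median of all genes by -0.13 in this comparison. RPL37 and RPL7L1 kept their sign in this comparison under every alternative that gives a single value per gene. The second probe of RPL7L1, also detected on all 8 arrays, gave -0.059 here and 0.027 for perfused 3D against 2D. That of RPS24, likewise detected on all 8 arrays, gave -1.09 and -1.05.

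**Figure D3:**
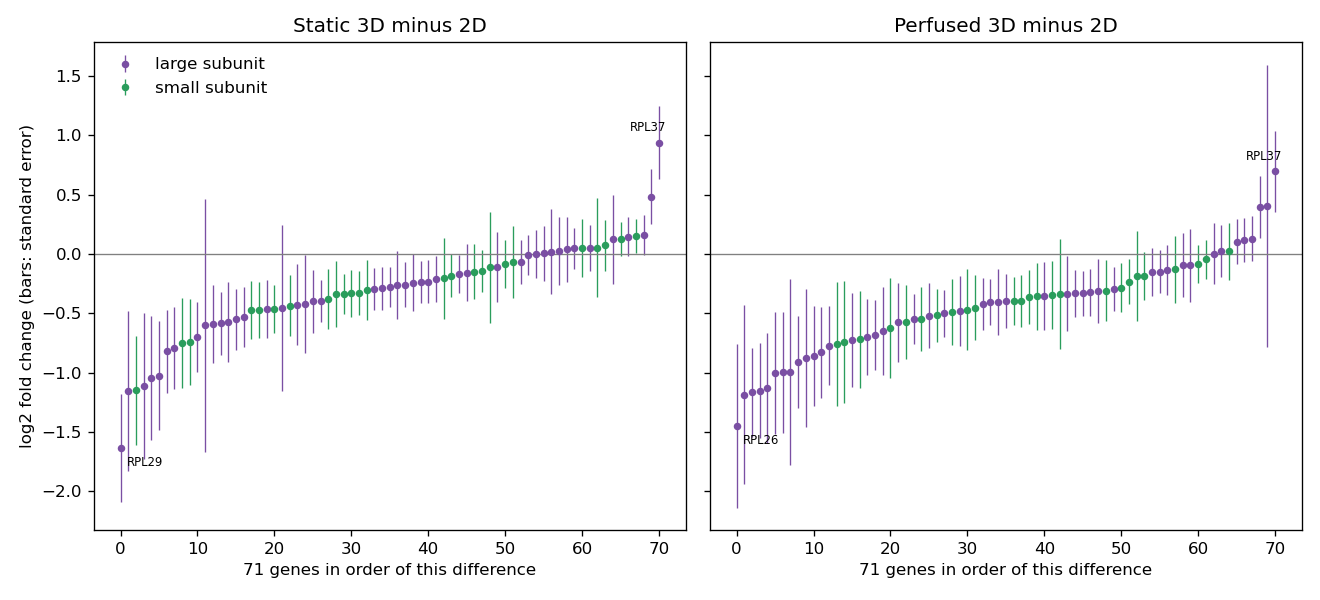
Log2 fold change of the 71 ribosomal protein genes against 2D (vertical axis), sorted within each panel (horizontal axis, rank), for static 3D on the left and perfused 3D on the right. Points are estimates, bars are standard errors and colours are subunits. Large and small subunit genes are mixed along the order, most estimates lie below 0, and RPL37 is at the upper end of each panel.

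Much of this shift rested on 2D replicate 1. Without that array the medians for static 3D against 2D were -0.17 for the large and -0.11 for the small subunit. Then 44 of 71 members (62.0%) were lower, against 49.6% of all genes. At an unadjusted p under 0.05, 1 member was lower (1.41%), where all genes had 1.75% lower. The arrays of the groups did not overlap for 22 members lower (31.0%), where all genes had 9.81% lower. Without both arrays that stood apart the medians were -0.11 and -0.10, again with 44 of 71 lower. The median of all genes was then -0.03 and 53.6% were lower.

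The second comparison sets perfused 3D against the same 2D arrays, so its values are not independent of the first. Again 0 of 71 members passed, where percent called over all genes was 0.00907, a share that stands for 1 gene, and the smallest adjusted p of a member was 0.964 (limma). The median was -0.41 for the large subunit, with 38 of 46 lower, and -0.36 for the small subunit, with 24 of 25 lower. At an unadjusted p under 0.05 there were 9 members lower (12.7%) and 0 higher, where all genes had 1.71% and 2.51%. The arrays of the groups did not overlap for 30 members lower (42.3%) and 1 higher, where all genes had 10.1% and 10.8%. No chip holds both formats, so chip and format cannot be told apart except through static 3D replicate 1. With chip as a fixed block the medians were -0.15 for each subunit, against -0.07 for all genes.

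RPL23A, a large subunit protein at the tunnel exit where nascent chains meet their targeting factors, had 9.78, 8.93 and 8.74 in 2D, 8.94, 8.19 and 8.61 in static 3D, and 7.88 and 8.09 in perfused 3D. Both perfused arrays lay below all 6 others, and the difference from 2D was -1.17 (SE 0.38, n = 2 and 3, limma adjusted p = 0.964). RPL23, another MDM2-binding protein, had 10.15, 10.61 and 9.79 in 2D, 9.56, 10.65 and 10.39 in static 3D, and 9.32 and 8.74 in perfused 3D, a difference from 2D of -1.15 (SE 0.40). RPL13A, which in human cells also takes part in silencing inflammatory messengers, had 12.84, 12.58 and 12.95 in 2D, 12.69, 12.37 and 12.53 in static 3D, and 12.16 and 12.32 in perfused 3D, a difference from 2D of -0.55 (SE 0.21). In all 3 genes the perfused arrays were the lowest of the 8, and 2D and static 3D overlapped. Without 2D replicate 1 the differences were -0.85, -1.17 and -0.53. With chip as a fixed block they were -1.70, -0.19 and -0.79, values that pass through static 3D replicate 1.

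Of the small subunit, RPS12 had 14.50 and 14.63 in perfused 3D, below the 2D arrays given above by -0.52 (SE 0.22, limma adjusted p = 0.964). RPS4X, an X-linked small subunit gene, had 12.82, 12.20 and 12.44 in 2D and 11.69 and 12.19 in perfused 3D, a difference of -0.55 (SE 0.27). RPS15 had 14.42, 13.99 and 14.41 in 2D and 13.98 and 13.77 in perfused 3D, a difference of -0.40 (SE 0.20). The groups did not overlap in these 3 genes, but in RPS4X and RPS15 their nearest arrays almost touched. The difference of RPS12 was -0.32 without 2D replicate 1. On the higher side RPL37 differed by 0.70 (SE 0.34), RPL7L1 by 0.40 (SE 0.26), RPLP2, an acidic protein of the stalk that recruits elongation factors, by 0.13 (SE 0.19) and RPS24 by 0.02 (SE 0.24). RPLP2 had 14.95, 15.29 and 15.22 in 2D and 15.24 and 15.32 in perfused 3D, an overlap, and differed by 0.027 without 2D replicate 1, and RPS24 turned negative under 6 of the settings tried.

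Without 2D replicate 1, 61 of 71 members were lower, with medians of -0.30 for the large and -0.24 for the small subunit. The groups did not overlap for 32 members lower (45.1%) against 15.8% of all genes. At an unadjusted p under 0.05, 4 members were lower (5.63%), where all genes had 1.12% lower.

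The last comparison sets the perfused scaffold against the static one. 0 of 71 members passed, where percent called over all genes was 0.00907, and the smallest adjusted p of a member was 1.000 (limma). The medians were -0.07 for the large subunit, with 34 of 46 lower, and -0.06 for the small subunit, with 16 of 25 lower. At an unadjusted p under 0.05 there were 2 members lower (2.82%) and 0 higher, where all genes had 0.752% and 1.12%. The groups did not overlap for 17 members lower (23.9%) and 0 higher, where all genes had 8.31% and 8.95%. The direction of these medians depended on the scaling: after median scaling they were 0.07 and 0.09, where the median of all genes was 0.12, and from the authors' processed values 0.06 and 0.08, where it was 0.06. Without static 3D replicate 1 they were -0.16 and -0.18, with 53 of 71 lower (74.6%) against 45.4% of all genes. No chip then holds arrays of both scaffold formats, so chip and format cannot be told apart in those values. With chip as a fixed block the medians were -0.027 and 0.035, with 23 of 46 and 11 of 25 lower. The median of all genes was then -0.055.

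RPL23 differed by -1.17 (SE 0.40, limma adjusted p = 1.000) and its values, given above, did not overlap between the scaffolds. With chip as a fixed block the difference of RPL23 was -0.53. RPL7, of the large subunit, had 8.60, 9.09 and 9.17 in static 3D and 7.95 and 8.00 in perfused 3D, a difference of -0.98 (SE 0.42). RPL5, which carries the 5S ribosomal RNA and with RPL11 inhibits MDM2, had 12.06, 11.56 and 10.94 in 2D, 11.56, 11.63 and 11.45 in static 3D, and 10.94 and 10.70 in perfused 3D, a difference between the scaffolds of -0.73 (SE 0.32). Its partner RPL11 had 14.62, 14.69 and 14.56 in 2D, 14.80, 14.64 and 14.57 in static 3D, and 14.53 and 14.92 in perfused 3D, with overlap between all groups. RPS3A had 12.65, 12.62 and 12.76 in static 3D and 12.03 and 12.31 in perfused 3D, a difference of -0.50 (SE 0.27). RPS19 differed by -0.22 (SE 0.16) and RPS28 by -0.65 (SE 0.52), the latter with overlap and by -1.13 without static 3D replicate 1.

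The arrays overlapped in each of the 6 genes named on the higher side, 3 of each subunit. RPL14 differed by 1.003 (SE 1.19), RPL29 by 0.63 (SE 0.51) and RPL30, of the large subunit, by 0.19 (SE 0.29). RPS7 differed by 0.41 (SE 0.51), RPS27L by 0.17 (SE 0.28) and RPS14 by 0.10 (SE 0.19). Without static 3D replicate 1, RPL14, RPL30 and RPS27L turned to -0.20, -0.023 and -0.10, and RPS14 was 0.028. Without perfused replicate 2, RPS7 turned to -0.094 and RPS14 to -0.013, and RPL29 was 0.22.

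The members with a paralogue on the array differed in how unevenly they lay across arrays. RPL39L, a copy of RPL39 known to be strong in testis and in some tumours, had 11.29, 8.29 and 8.98 in 2D, 9.77, 8.67 and 8.76 in static 3D, and 8.36 and 8.69 in perfused 3D. It was highest on the 2 arrays that stood apart, where its partner RPL39 was highest and lowest, and its second probe followed the same order there, with 10.71 and 9.31 against 8.20 to 8.88 elsewhere. Its difference between static 3D and 2D was -0.46 (SE 0.70) and became 0.43 without 2D replicate 1. RPL26L1 differed from 2D by -0.40 (SE 0.26) in static 3D and -0.68 (SE 0.29) in perfused 3D, and RPL26 by -1.11 (SE 0.62) and -1.45 (SE 0.69). RPL36AL differed by -0.23 (SE 0.18) and -0.15 (SE 0.20), and its partner RPL36A by -1.03 (SE 0.46) and -1.0 (SE 0.51). RPS27L, a p53 target, differed by -0.30 (SE 0.25) and -0.13 (SE 0.28), and RPS27 by -0.33 (SE 0.20) and -0.39 (SE 0.22). RPL39 differed by -1.16 (SE 0.67) and -1.18 (SE 0.75). RPL7 differed from 2D by 0.12 (SE 0.38) and -0.86 (SE 0.42), beside 0.48 and 0.40 for RPL7L1. Whether a copy differed from its partner was not tested.

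Much of these paralogue values rested on single arrays. Without static 3D replicate 1, the difference of RPL26 between static 3D and 2D was -0.38, that of RPL39 -0.31, that of RPS27 -0.21 and that of RPS27L -0.027. When 2D replicate 1 was left out, RPL26L1 was -0.17, RPL36A -0.58, RPS27 -0.17 and RPL7 0.49 in static 3D. In perfused 3D, also without 2D replicate 1, RPL39L was -0.11, RPL36A -0.56, RPL7 -0.49, RPS27 -0.24 and RPS27L -0.24, and without perfused replicate 1 RPL36AL was 0.058. Between the scaffolds, perfused minus static, the differences were -0.08 for RPL7L1, -0.28 for RPL26L1, 0.08 for RPL36AL, -0.54 for RPL39L and 0.17 for RPS27L. Their partners gave -0.98 for RPL7, -0.34 for RPL26, 0.02 for RPL36A, -0.03 for RPL39 and -0.06 for RPS27. Without static 3D replicate 1 these became -1.07 for RPL26, -0.88 for RPL39, -0.18 for RPS27, -0.19 for RPL39L, 0.24 for RPL36A and 0.056 for RPL7L1. With chip as a fixed block, RPL39, RPL26 and RPS27L turned to 1.37, 0.74 and 0.69 for perfused 3D against 2D, since that value passes through static 3D replicate 1, the lowest array for each.

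Other well-known members differed from 2D by 0.40 units or less, and none passed the test. RPS6, the substrate of the S6 kinases, had 14.52, 14.20 and 13.99 in 2D, 13.35, 14.18 and 14.04 in static 3D, and 13.82 and 13.93 in perfused 3D. RPS3, which also has a role in DNA repair, had 14.21, 13.58 and 13.99, then 14.10, 13.55 and 13.67, then 13.48 and 13.75. RPS14, lost in a form of myelodysplastic syndrome, had 14.41, 14.16 and 14.37, then 13.83, 14.02 and 14.08, then 13.96 and 14.19. RPS6 differed from 2D by -0.38 (SE 0.25) in static 3D, or -0.13 without static 3D replicate 1 and 0.017 without both arrays that stood apart. In perfused 3D it differed by -0.36 (SE 0.28), and both arrays lay below all of 2D. RPS3 differed by -0.15 (SE 0.23) and -0.31 (SE 0.26) with overlap, and by -0.008 and -0.17 without 2D replicate 1. RPS14 differed by -0.34 (SE 0.17) and -0.24 (SE 0.19), and its static arrays all lay below all of 2D. RPLP1, the stalk partner of RPLP2, had 14.50, 14.18 and 13.84, then 14.04, 14.20 and 14.28, then 13.69 and 13.86. RPL41, a very short large subunit protein, had 15.64, 15.26 and 15.32, then 15.19, 15.10 and 15.04, then 14.91 and 15.24. RPLP1 differed by -0.40 (SE 0.23) in perfused 3D with overlap, and by -0.0003 (SE 0.20) in static 3D. All scaffold arrays of RPL41 lay below all of 2D, by -0.29 (SE 0.17) in static 3D and -0.33 (SE 0.19) in perfused 3D.

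Probes of a gene did not always tell the same story. Among 32 members with several kept probes, 7 had probes of opposite sign for static 3D against 2D and 6 for perfused 3D against 2D. Probes differed by over 1 log2 unit in RPL10A, RPL13 and RPS24 for the first and RPL9, RPL10A, RPL14 and RPS24 for the second. For perfused against static 3D, 15 of the 32 had probes of opposite sign, and probes differed by over 1 unit in RPL9 and RPL14. RPL14 is the plainest case. The probe that stands for it had 7.0, 9.84 and 9.73 in 2D, 5.85, 9.53 and 9.39 in static 3D, and 9.19 and 9.33 in perfused 3D, low on the 2 arrays that stood apart and nowhere else, and not detected on static 3D replicate 1. Its second probe had 7.81, 7.70 and 6.71, then 7.08, 6.95 and 7.30, then 6.42 and 6.03, without that pattern, and was detected on 4 of 8 arrays. Of the 4 probes of RPS29, the one that stands for the gene lay at 14.30 on static 3D replicate 1 and 14.86 and 14.84 on the other static arrays, another at 11.998 against 13.46 and 13.40, and yet another at 14.34 against 14.41 and 14.28. On that array probes of 1 gene thus gave different deficits. Ribosomal protein genes have many processed pseudogenes of near-identical sequence, and whether probes also bind those copies was not tested. Counted over all 114 probes, 91 lay lower in static 3D and 102 in perfused 3D than in 2D, with medians of -0.28 and -0.41.

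**Figure D4:**
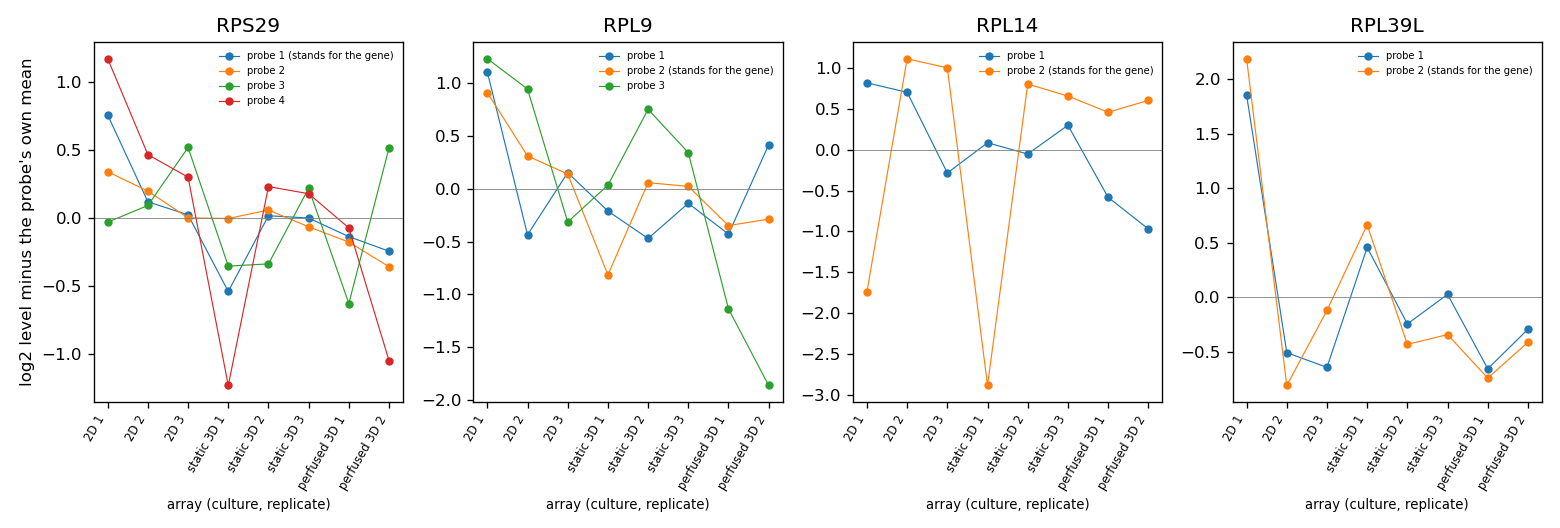
Log2 level of each kept probe of RPS29, RPL9, RPL14 and RPL39L minus that probe's own mean (vertical axis, log2 units) by array (horizontal axis). Each line is a probe, and the legend marks the one that stands for the gene. The RPL14 probes part on 2D replicate 1 and static 3D replicate 1, the RPS29 probes part on static 3D replicate 1, and the RPL39L probes share their high arrays.

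Genes that work with the ribosome lay mostly in the same direction without passing the test, and much of that rested on 2D replicate 1. Over all genes, 49.9% were lower in static 3D and 49.2% in perfused 3D than in 2D. Of 21 measured translation genes that also carry TOP messengers, 18 and 20 were lower, with medians of -0.20 and -0.29 and 0 called by limma. At an unadjusted p under 0.05, 1 was lower (4.76%) and 1 higher (4.76%) in static 3D, where all genes had 2.06% and 2.64%. In perfused 3D there were 0, where all genes had 1.71% lower and 2.51% higher. FAU, which encodes a small subunit protein fused to a ubiquitin-like one, differed by -0.44 (SE 0.17) in static 3D, and NOP53, an assembly factor, by 0.42 (SE 0.16). In perfused 3D the assembly-linked chaperone NAP1L1 differed by -0.60 (SE 0.31) and the elongation factor subunit EEF1G by -0.50 (SE 0.27). Of 66 ribosome assembly factors, 56 were lower in static 3D and 56 in perfused 3D, with medians of -0.21 and -0.34, 0 called by limma and 0 with an unadjusted p under 0.05. WDR12, of the PeBoW complex, and NHP2, of the H/ACA particles, differed by -0.89 (SE 0.39) and -0.63 (SE 0.29) in static 3D. SBDS, which helps to free the large subunit for translation, and NOP58, of the C/D box particles, differed by -1.25 (SE 0.55) and -0.93 (SE 0.41) in perfused 3D. Of 29 initiation factors, 20 and 23 were lower, with medians of -0.12 and -0.21, and of 13 dedicated chaperones and importers 10 and 10, with medians of -0.27 and -0.35. The 19 regulators of these messengers, such as the EIF4EBP and LARP genes, lay on either side, with 8 and 9 lower and medians of 0.03 and 0.03, and of 14 genes of RNA polymerase I and its factors 7 and 9 were lower.

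These lists gave other values when 2D replicate 1 was left out, where 49.6% and 49.2% of all genes were lower. The TOP translation genes had 15 of 21 lower in static 3D and 19 of 21 in perfused 3D, with medians of -0.08 and -0.20. The assembly factors had 25 of 66 and 40 of 66 lower, and their median turned to 0.07 in static 3D and was -0.05 in perfused 3D. The initiation factors had 13 and 19 of 29 lower, with medians of 0.01 and -0.08, and the chaperones 8 and 8 of 13, with medians of -0.05 and -0.03. Of the polymerase I genes 3 and 5 of 14 were lower. Of the genes named above, SBDS was -0.79, NOP58 -0.52, WDR12 -0.56, NHP2 -0.34, NAP1L1 -0.37 and EEF1G -0.26 without that array, and FAU and NOP53 were -0.40 and 0.36.

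The genes of the mitochondrial ribosome, a separate set, also lay mostly lower in both scaffolds than in 2D. Of 75 measured mitochondrial ribosomal protein genes, 70 were lower in static 3D and 64 in perfused 3D than in 2D, with medians of -0.30 and -0.30, 0 called by limma, and 5 (6.67%) and 3 (4%) lower at an unadjusted p under 0.05, where all genes had 2.06% and 1.71%. Their mean deviation was 0.59 on 2D replicate 1, and -0.10 and 0.07 on the other arrays of 2D. It was -0.01, -0.24 and -0.12 in static 3D, and -0.25 and 0.06 in perfused 3D. On the scaffold arrays this was another pattern than that of all cytosolic members. Those had -0.31, 0.04 and 0.01 in static 3D, and -0.24 and -0.18 in perfused 3D. Without 2D replicate 1, 51 and 45 of the 75 mitochondrial genes were lower, with medians of -0.09 and -0.08. Between the scaffolds, with all arrays, their median was 0.07, with 27 of 75 lower, where the cytosolic members had -0.06 with 50 of 71 lower. No test of that difference was made.

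**Figure D5:**
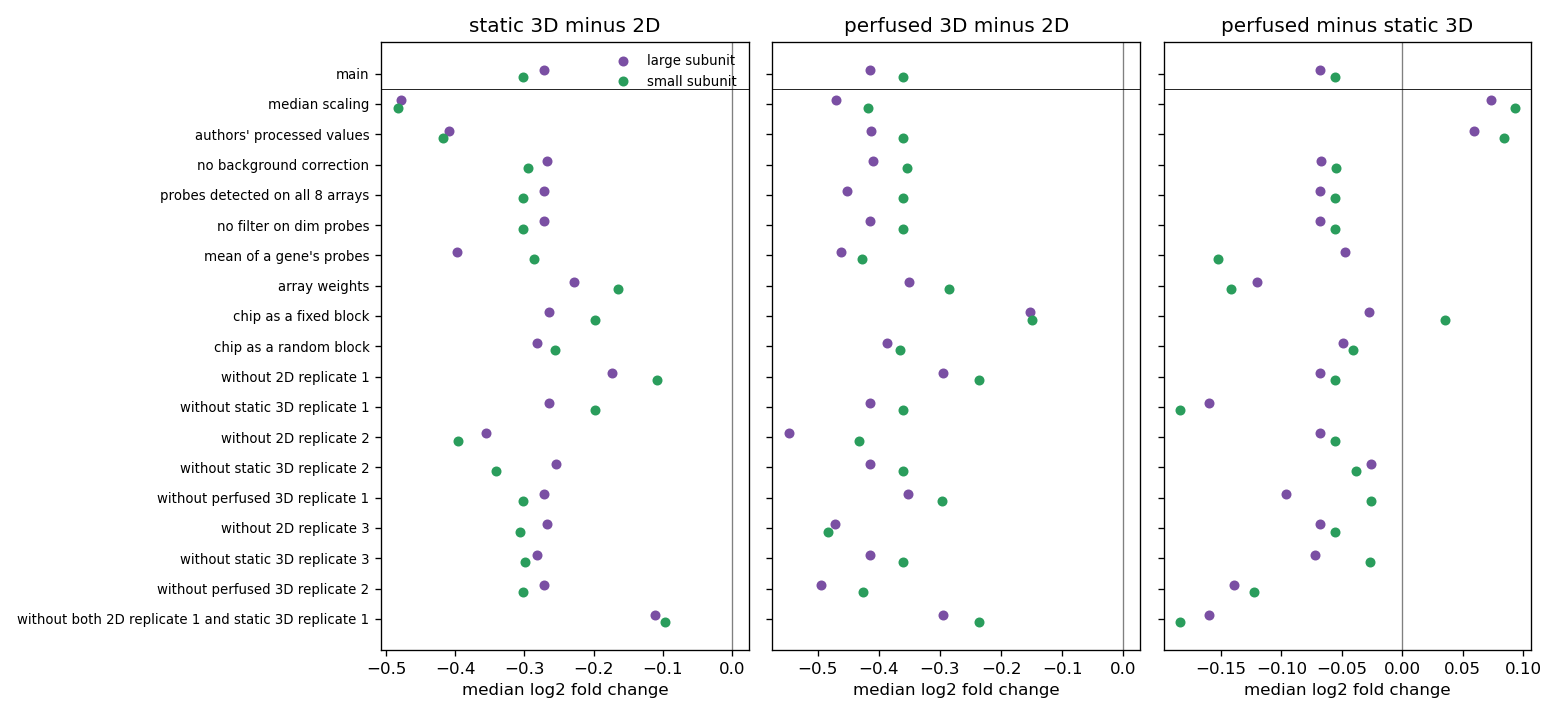
Median log2 fold change (horizontal axis) of the large and small subunit genes under each processing choice (rows), for the 3 comparisons (panels, each with its own scale). Points are medians over genes, and the row at the top is the value reported. All medians against 2D lie below 0, those of static 3D nearest to 0 without both arrays that stood apart, and those of perfused against static 3D lie on either side of 0.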

How the data were processed

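The authors deposited, per the file headers, a mean bead intensity and a detection p-value for 47323 probes on each of 8 arrays, not normalised between arrays (array medians 279 to 386, 29.7% to 34.3% of probes detected). They also deposited a processed table on a log2 scale, used as an alternative, whose normalisation the sources used here do not give. Intensities were background corrected with limma 3.58.1 in R 4.3.3 (normexp, offset 16, background inferred from the detection p-values), quantile normalised and put on the log2 scale. Probes with a detection p under 0.05 on 2 or more arrays were retained, and the probe with the highest mean stood for its gene, which left 11031 genes. Gene symbols came from the platform annotation, which names 30113 probes with 1 symbol, 8 with several and 17202 with none.

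A linear model with a mean per group over all 8 arrays was fitted to all genes (lmFit and trended eBayes, with 5 residual degrees of freedom, 8.45 after moderation), two-sided, with Benjamini-Hochberg adjustment at 0.05. Precision is limited by the number of arrays. The code was tested on simulated data.

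The members, gene lists and tests were chosen with earlier results of these data known. Named genes were, per comparison and subunit, the 3 with the smallest p in each direction, members with a paralogue on the array, a fixed set of well-known members, and the 2 smallest p of each other list. Members with the highest or lowest level were not named, since levels of different probes cannot be compared, and of the other lists genes are named only for translation genes with TOP messengers and assembly factors, in the comparisons with 2D. Genes whose values stood out on single arrays were chosen after the values were seen. Replicate numbers follow the order of the records and were not used to pair arrays.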

Additional observations from a re-analysis of the deposited data

How the results depend on the processing

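0 members passed the test in any comparison under any setting. All subunit medians against 2D stayed below 0. Leaving out 1 array at a time, they ranged for static 3D from -0.35 to -0.17 (large) and -0.40 to -0.11 (small). Outside those ranges, the large and small subunit medians of static 3D against 2D were -0.48 and -0.48 after median scaling, -0.41 and -0.42 from the authors' values, and -0.11 and -0.10 without the 2 arrays that stood apart. As the mean of a gene's probes the large subunit median was -0.40. With chip as a fixed block the medians of perfused 3D against 2D were -0.15 (large) and -0.15 (small). Over all genes, both comparisons with perfused 3D called 0 genes with probes detected on all 8 arrays, 0 with chip as a fixed block and 2 without a filter on dim probes. Without both arrays that stood apart, static 3D against 2D called 1 gene and perfused 3D against 2D called 2.

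Of single genes, for static 3D against 2D, median scaling gave RPL3 -0.058, RPL7 -0.080, RPS16 -0.074, RPS19 -0.069 and RPS24 -0.17. The authors' values gave RPL7 -0.029, RPS16 -0.011, RPS19 -0.0062 and RPS24 -0.11. The mean of a gene's probes gave RPS24 -0.51, and chip as a fixed block -0.036. Without both arrays that stood apart RPL39L was 0.078. Over the fits with arrays left out, RPL39L ranged from -1.07 to 0.43, RPL7 from -0.25 to 0.67 and RPS24 from -0.097 to 0.16. For perfused 3D against 2D, chip as a fixed block gave RPL26 0.74, RPL39 1.37, RPL7L1 -0.025, RPS24 -0.31 and RPS27L 0.69, and chip as a random block RPS24 -0.031 and RPS27L 0.0084. There RPS24 was -0.048 after median scaling and -0.51 as the mean of its probes. With arrays left out, RPS24 ranged from -0.15 to 0.20 and RPL36AL from -0.36 to 0.058. For perfused against static 3D, chip as a fixed block gave RPS28 0.32, RPL26 1.13, RPL36A -0.40, RPL39 1.67 and RPS27 0.17, and chip as a random block RPL36A -0.047 and RPL39 0.26. Median scaling gave RPL39 0.13, RPL7L1 0.042 and RPS27 0.081, and the authors' values 0.12, 0.033 and 0.072. The mean of a gene's probes gave RPL26L1 0.091, RPL36AL -0.045 and RPL7L1 0.00072, and array weights RPS27L -0.016. With arrays left out, RPL14 ranged from -0.20 to 1.64, RPL26 from -1.07 to 0.28, RPL30 from -0.023 to 0.34, RPL36A from -0.57 to 0.62, RPL36AL from -0.13 to 0.29, RPL39 from -0.88 to 0.66, RPL7L1 from -0.26 to 0.095, RPS14 from -0.013 to 0.21, RPS27 from -0.18 to 0.010, RPS27L from -0.10 to 0.31 and RPS7 from -0.094 to 0.91. The cause of these changes was not tested.

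No paired analysis was possible because the labels carry no replicate number, donor or day that would tie samples of different groups, and the order of the records cannot stand for one. As a description across all 11031 genes, which are not independent, deviations from each gene's mean over the 8 arrays correlated for 2D replicate 1 with static 3D replicate 1 (r = 0.34), 2D replicate 2 with static 3D replicate 2 (0.39) and perfused replicate 1 (0.43), static 3D replicate 2 with perfused replicate 1 (0.45), and 2D replicate 3 with perfused replicate 2 (0.28). These were the pairs with the highest values. The other pairs ran from -0.67 (2D replicate 1 with perfused replicate 1) to 0.23 (static 3D replicate 2 with static 3D replicate 3). The source of the likenesses was not tested.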
